A study of Mus musculus with 6 samples.

Results

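The Wnt signalling core genes examined here are 10 genes that carry the canonical Wnt signal from the cell surface to its targets. They are the co-receptors Lrp5 and Lrp6, the scaffold and feedback genes Apc, Axin2 and Nkd1, the effector Ctnnb1, the nuclear factors Tcf7, Lef1 and Tcf7l2, and the target gene Myc. Members were chosen by name, out of 21911 protein-coding genes in the annotation. Each was represented by the accessible chromatin called around it, taken as every ATAC-seq peak whose summit lay in the gene body or within 20 kb of it on GRCm38. In this assay, open chromatin is cut and tagged by a transposase, and a peak is a stretch where tagged fragments pile up above the background. The 6 lists of called peaks held 460 peaks in these windows. Merged wherever they overlapped, they formed 111 regions, out of 71286 regions in the whole genome.

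Chromatin was taken from intestinal crypts of 3 WT and 3 Arid3a cKO samples. Arid3a encodes a transcription factor of the A+T-rich interaction domain family. The cKO mice carried floxed Arid3a alleles and VillinCre-ERT2, a tamoxifen-activated recombinase driven by a promoter active in Villin-positive epithelial cells, so the gene was targeted in epithelium and not in other cells of the gut. Tamoxifen was given to both genotypes over 3 consecutive days, and crypts were taken 1 month after its first dose. Whether WT mice carried the recombinase, and the age of the mice, is not given in the sources used here. The labels number the samples but do not tie each one to a single animal, so the spread between samples may be partly technical.

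In the absence of a Wnt ligand, a cytoplasmic complex built on the scaffolds Axin and Apc marks β-catenin, the product of Ctnnb1, for destruction. Ligand binding to Frizzled and the LRP co-receptors disables that complex, and β-catenin enters the nucleus and activates genes through TCF/LEF factors, among them its own inhibitors. In the intestine this signal is strongest at the crypt base and is known for maintaining stem cells and proliferation.

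The lists held 40492 to 58297 peaks. The background at each peak was inferred from the fold and p columns. Its most frequent value, also about the lowest, was 1.75 to 2.29 fragments per base across lists. At the member peaks it ran from 1.82 to 30.9. A peak at the Arid3a promoter was called in all 6 lists, at percentiles of 56.5, 41.5 and 29.7 in WT and 23.1, 40.2 and 24.6 in cKO samples, so peak calls did not check the genotype. Promoter peaks of 4 of 8 epithelial markers (Cdh1, Vil1, Cdx2 and Hnf4a) and 3 of 6 crypt markers (Olfm4, Smoc2 and Mki67) were called in all 6 lists, whereas Cdx1 had none. The stem cell marker Lgr5 had one in 2 WT lists and no cKO list, going by where the summit fell. The region itself was called in all 6 lists, at percentiles of 62.5, 70.8 and 54.3 in WT and 61.7, 69.7 and 52.9 in cKO samples. Of 12 lymphocyte markers, 10 had no promoter peak in any list, Gzmb had one only in cKO 1 and Lck had one in all 6. Of 8 stromal and endothelial markers, Col1a1 and Pdgfra had one in all 6 lists and 4 had none. The lymphocyte markers matter for Tcf7 and Lef1, which T cells also use. Of the 12 lymphocyte markers, each WT list had a promoter peak at 1, and the cKO lists at 2, 1 and 1.

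The windows of the Wnt genes held more called regions per kb than the genome as a whole. They covered 1200 kb and held 9.25 regions per 100 kb, against 2.62 per 100 kb over the genome. Each window holds a gene, whereas the genome figure includes stretches far from genes, and windows of other genes were not compared. Tcf7l2 had the most, 34 regions, followed by Lrp5 with 18 and Ctnnb1 with 10, and Myc had 3. A promoter peak, with a summit from 1000 bp upstream to 100 bp downstream of an annotated start site, was called in all 6 lists at 8 of the 10 genes, against 44.5% of protein-coding genes. The exceptions were Lef1, in 5 lists, and Lrp5, in cKO 2 only. Of the 111 regions, 14 were promoter regions of a member, 5 were promoters of another gene in the window and 92 were distal. Distal summits lay mostly in introns of the member, 64 of 92. Regions called in all 6 lists numbered 42 of 111 (37.8%), against 45.9% over the genome, and 21 were called in a single list. The regions called in all 6 lists were also the strongest. Their median percentile within a list was 53.4, compared with 10.4 for the regions in a single list. Of the 12 regions called in 5 of 6 lists, 7 were missing in WT 1 and 4 in cKO 2, the lists with the fewest peaks.

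Peak numbers did not separate the genotypes. WT 1, 2 and 3 had 56, 79 and 84 peaks at the members, and cKO 1, 2 and 3 had 94, 68 and 79. WT lists thus averaged 73.0 ± 14.9 peaks and cKO lists 80.3 ± 13.1 (± SD over 3 lists each). These numbers followed the length of the lists, and the members' share of a list averaged 0.149% ± 0.00930 for WT and 0.154% ± 0.00737 for cKO. With every list shortened to the same length, the difference turned from 7.33 more peaks in cKO to 1.33 fewer. Promoter peaks averaged 12.3 ± 1.53 in WT and 12.3 ± 0.577 in cKO samples, and distal peaks 58.7 ± 13.7 and 65.3 ± 11.5. Of the 10 genes, Nkd1 gave the lowest p, with 2, 3 and 3 peaks in WT and 6, 3 and 6 in cKO samples (exact two-sided permutation p = 0.3, Benjamini-Hochberg adjusted p = 1 over the 10 genes). With lists of equal length this difference was −0.667 peaks in place of 2.33. The smallest p that 3 samples against 3 allow is 0.1. That exact permutation p was reached at Nkd1 in the gene body without flanks, with 2.67 more peaks in cKO. It was also reached at Tcf7l2 with lists of equal length, with 1.67 more. In both settings 0 genes passed the adjusted threshold.

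**Figure D1:**
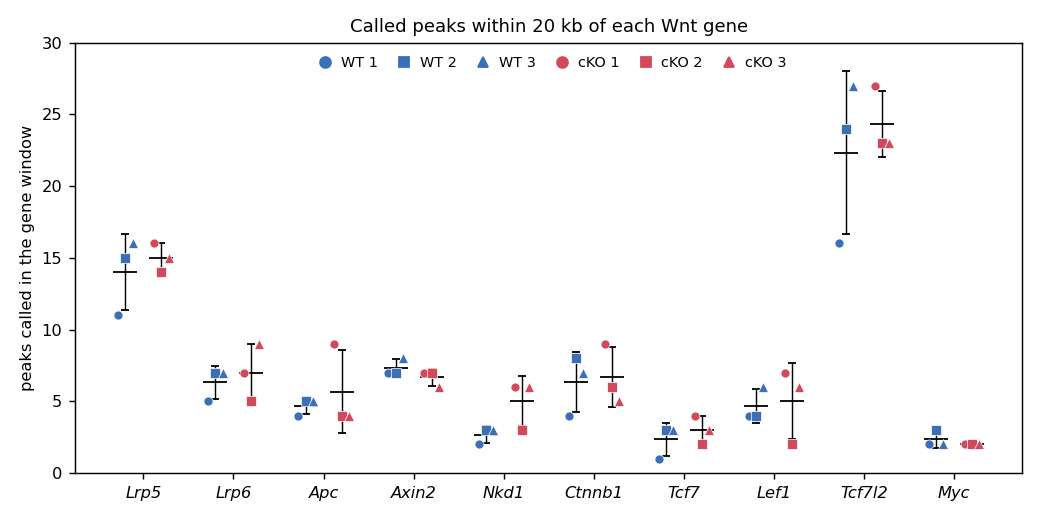
Number of called peaks in the window of each gene (vertical axis) in the 3 WT lists (blue) and the 3 cKO lists (red), with the mean and SD of each genotype in black. The genotypes overlap at every gene, and Tcf7l2 ranges from 16 peaks in WT 1 to 27 in WT 3 and cKO 1.

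Strength was compared by rank. The authors' fold is the pileup of fragments at a summit over the local background, and its scale moves with the quality of a library. Each region was therefore given the percentile of its fold among the 32748 regions called in all 6 lists, where 100 is the strongest. For a region that was not called in every list, the percentile within the whole list is given instead and named so. The percentiles of all 32748 regions were compared between genotypes with limma at a Benjamini-Hochberg adjusted p of 0.05.

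No region of the Wnt genes passed this test. It called 0 of the 42 member regions and 0 of all 32748 (0%). At an unadjusted p under 0.05 there was 1 of 42 member regions, the Ctnnb1 promoter, against 6.84% of all regions. Every cKO percentile was below every WT percentile at 3 of the 42 regions, the Ctnnb1 promoter, the Axin2 promoter and an Axin2 intron, against 6.08% of all regions. Every cKO percentile was above every WT percentile at 0 of 42, against 5.86%. Peaks called in all cKO lists and no WT list formed 2 of the 111 regions, against 0.464% of all regions, and peaks called in all WT lists and no cKO list formed 0, against 0.111%.

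The promoters of the Wnt genes ranked lower in cKO 1 and cKO 3 than in WT, and cKO 2 did not share this. The median percentile over the 12 promoter regions called in all 6 lists reached 61.2, 54.9 and 57.9 in the WT lists, compared with 38.6, 58.1 and 39.1 for cKO 1, 2 and 3. WT lists averaged 58.0 ± 3.19 and cKO lists 45.3 ± 11.1 (± SD, n = 3 lists each), and no test was made over the members. The median of the 12 single differences was smaller, −3.26 points. cKO 1 lay below every WT list at 7 of the 12 promoters (58.3%, against 48.1% of all promoter regions) and cKO 3 at 9 (75%, against 45.1%). cKO 2 lay above every WT list at 7 (58.3%, against 24.7%). The same lists stood apart over all 13242 promoter regions, with medians of 67.1 and 67.4 in cKO 1 and cKO 3, against 73.9 in cKO 2 and 71.9 to 74.6 in WT. Ranked by −log10 p in place of fold, the difference over the members' promoters was −0.355 instead of −12.7 percentile points. The 28 distal regions had medians of 28.4 ± 2.26 in WT and 26.9 ± 7.91 in cKO samples. Ranked by −log10 p, their difference was −5.57 instead of −1.60 points, so that the distal regions and not the promoters then had the larger drop. In single regions, cKO was lower than WT on average at 9 of 12 promoters and 19 of 28 distal regions, compared with 64.8% of all promoter and 46.4% of all distal regions.

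**Figure D2:**
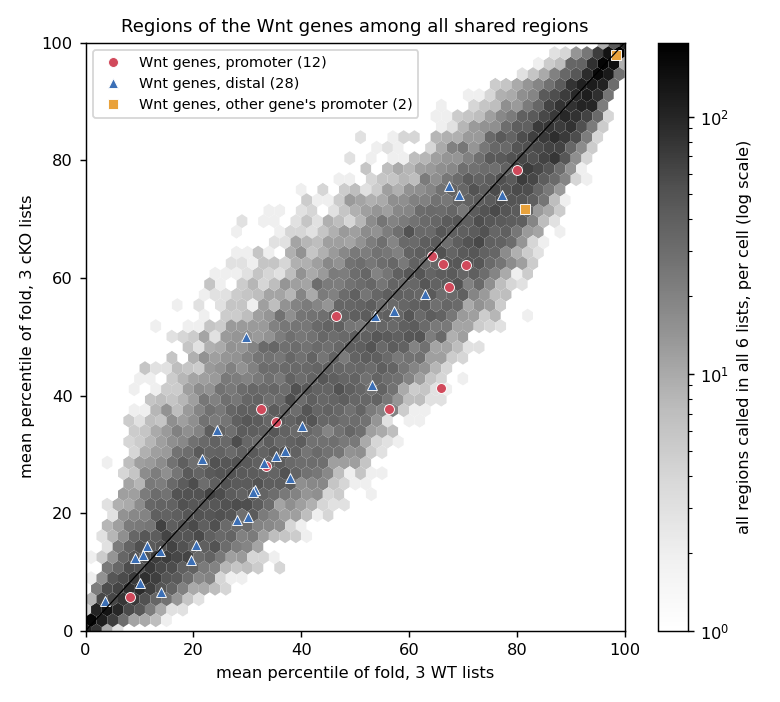
Mean percentile of fold in the 3 WT lists (horizontal axis) and the 3 cKO lists (vertical axis) for the 42 regions of the Wnt genes called in all 6 lists, over the density of all 32748 such regions in grey on a log scale. The Ctnnb1 promoter, at 41.3 in cKO, lies farthest below the line of equal rank, and a distal Apc region, at 29.8 in WT, lies farthest above it.

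TCF/LEF factors bind a short consensus, and Axin2, Nkd1, Tcf7 and Lef1 are known both as parts and as targets of the pathway, so the summits were searched for it. The letters CTTTGAA and CTTTGAT were sought on both strands within 100 bp of each summit. A match lay in 14 of the 111 member windows (12.6%), against 8.04% of all windows. Among the 14 promoter windows of the members, the 2 with a match were those of Axin2 and Nkd1, both feedback inhibitors, against 3.73% of all promoter windows. Among distal windows of the members the share was 12%, against 9.37%. ARID3 letters, ATCAAA and ATTAAA, were in 16 of the 111 member windows (14.4%) and 16.1% of all windows. The reverse complement of CTTTGAT contains ATCAAA, so these searches overlap, and 8 member windows held both. AP-1 letters, TGAGTCA and TGACTCA, were in 8.11% of member windows and 8.11% of all windows, and HNF4 letters, CAAAGTCCA and CAAAGTTCA, were in 2.70% and 2.52%. A match describes the letters only and says nothing of binding.

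The windows with a TCF/LEF match in regions called in all 6 lists are shown because they tie the called chromatin to the pathway's own binding letters. They are read from the plus strand of GRCm38.p6, with only the TCF/LEF match in capitals. Both Tcf7l2 windows among these 5 also hold HNF4 letters, which are not marked. The Axin2 match lies in the transcribed leader of the gene and is shown with its nearest bases only. The others are the Nkd1 promoter, a region 4.28 kb upstream of Lef1 and 2 regions in introns of Tcf7l2. The last window, with 3 matches, also lies in a Tcf7l2 intron and was called in cKO 1 and cKO 3 only.
Axin2 promoter, chr11:108920416-108920444: agccggctgcgCTTTGATaaggtcctggc
Nkd1 promoter, chr8:88521147-88521347: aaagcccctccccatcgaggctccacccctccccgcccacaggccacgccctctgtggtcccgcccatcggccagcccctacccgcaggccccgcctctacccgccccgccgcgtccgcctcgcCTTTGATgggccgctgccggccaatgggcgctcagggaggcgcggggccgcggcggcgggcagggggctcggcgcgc
Lef1 upstream region, chr3:131106088-131106288: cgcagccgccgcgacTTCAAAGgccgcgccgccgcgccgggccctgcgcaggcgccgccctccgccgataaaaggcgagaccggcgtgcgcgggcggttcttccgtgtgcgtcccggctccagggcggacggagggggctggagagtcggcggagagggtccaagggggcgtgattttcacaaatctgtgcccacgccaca
Tcf7l2 intron, chr19:55838867-55839067: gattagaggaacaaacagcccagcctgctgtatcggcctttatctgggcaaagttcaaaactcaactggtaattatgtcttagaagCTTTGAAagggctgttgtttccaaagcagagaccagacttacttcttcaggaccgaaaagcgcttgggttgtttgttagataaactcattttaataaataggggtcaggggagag
Tcf7l2 intron, chr19:55860148-55860348: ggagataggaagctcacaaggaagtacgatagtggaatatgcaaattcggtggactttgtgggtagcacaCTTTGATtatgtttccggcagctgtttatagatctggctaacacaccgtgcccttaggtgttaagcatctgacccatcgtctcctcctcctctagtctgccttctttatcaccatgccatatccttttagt
Tcf7l2 intron in 2 cKO lists, chr19:55763338-55763538: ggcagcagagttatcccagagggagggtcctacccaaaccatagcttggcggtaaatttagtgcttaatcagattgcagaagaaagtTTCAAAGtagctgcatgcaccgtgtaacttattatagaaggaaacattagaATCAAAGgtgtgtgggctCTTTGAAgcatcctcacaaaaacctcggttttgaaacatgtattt

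The co-receptors Lrp5 and Lrp6 bind Wnt ligands together with Frizzled proteins. Lrp5 (ENSMUSG00000024913.16, chr19:3584828-3686564, minus strand) had 11, 15 and 16 peaks in WT and 16, 14 and 15 in cKO samples. The region over its start, chr19:3685151-3687311, had its strongest summit 0.258 kb inside the gene, and only cKO 2 placed the summit within the promoter limits. Its percentiles were 32.1, 34.2 and 34.1 in WT and 21.9, 39.3 and 23 in cKO samples. The WT lists fell between the cKO lists, and the difference was −5.41 percentile points (limma, 95% interval −24.2 to 13.4, adjusted p = 0.867). The strongest region in the window was the promoter of the neighbouring gene Ppp6r3, at 79.0 to 84.7 in WT and 62.3 to 82.3 in cKO samples. Of the distal regions, the strongest were intronic, at 12.2 and 17.3 kb from the start. They stood at 57.1 ± 7.01 and 53.2 ± 14.6 in WT, and at 54.4 ± 6.89 and 41.8 ± 10.7 in cKO samples.

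Lrp6 (ENSMUSG00000030201.15, chr6:134446476-134566965, minus strand) had a stronger promoter than Lrp5. At chr6:134565771-134567528 the percentiles were 66.2, 78.7 and 66.8 in WT and 59.0, 75.8 and 51.7 in cKO samples. cKO 2 fell between the WT lists, and the difference was −8.42 points (limma, 95% interval −25.8 to 8.98, adjusted p = 0.773). Downstream of the gene, a region at chr6:134443070-134444213 was among the 3 member regions with the largest rise in rank. It stood at 57.6, 61.1 and 83.5 in WT and 75.1, 73.2 and 78.8 in cKO samples. The strongest intronic region, chr6:134466575-134467282, stood at 69.4 ± 5.02 in WT and 74.2 ± 7.62 in cKO samples. In the downstream region WT 3 was the highest of all 6 lists, and without WT 1 the difference went from 8.30 to 2.93 points.

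Apc and Axin2 are scaffolds of the complex that marks β-catenin for destruction, and Nkd1 is an inhibitor that binds Dishevelled. Apc (ENSMUSG00000005871.15, chr18:34220924-34322552, plus strand) had promoter peaks at 2 annotated starts. The upstream one, chr18:34220455-34221955, ranked highest of the members' promoters on average. It stood at 76.1, 80.1 and 84.2 in WT and at 72.1, 89.8 and 73.3 in cKO samples. The other, 26.7 kb further in, varied more, from 51.3 to 74.5 in WT and from 34.9 to 87.5 in cKO samples. An intronic region 65.7 kb into the gene had the largest rise in rank among the 42 member regions, although the genotypes overlapped. Its percentiles were 24.3, 24.3 and 40.7 in WT and 36.9, 38.3 and 74.8 in cKO samples. The difference of 20.3 points (limma, 95% interval −3.82 to 44.3, adjusted p = 0.711) fell to 7.84 without cKO 3.

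Axin2 (ENSMUSG00000000142.15, chr11:108920349-108950783, plus strand), a scaffold that is also a widely used readout of Wnt activity, had the most stable set of regions. Of its 7 regions, 6 were called in every list. Its promoter region, chr11:108919969-108922127, stood at 76.3, 44.7 and 47.9 in WT and 31.8, 43.9 and 37.3 in cKO samples. The fold there was 8.67, 7.72 and 8.23 across WT lists, and 6.76, 6.80 and 6.49 across cKO lists. Every cKO list lay below every WT list, with cKO 2 close to WT 2. The difference was −18.6 points (limma, 95% interval −40.7 to 3.43, unadjusted p = 0.0920, adjusted p = 0.711), and without WT 1 it was −9.41. Ranked by −log10 p it was −7.37 points. The inferred pileups at the summit overlapped between genotypes, with 92, 94 and 133 fragments across WT lists, and 174, 70 and 128 across cKO lists. An intronic region at 5.03 kb, chr11:108925196-108926006, also had no overlap. It stood at 14.8, 14.8 and 12.3 in WT and 7.84, 4.70 and 7.45 in cKO samples, which is low in both genotypes (limma, unadjusted p = 0.0785, adjusted p = 0.711). A region 13.3 kb upstream stood at 40.2 ± 1.86 in WT and 34.8 ± 8.15 in cKO samples. A stronger intronic region at 16.0 kb overlapped, with 38.2, 53.1 and 22.6 in WT and 19.4, 34.9 and 23.7 in cKO samples.

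Nkd1 (ENSMUSG00000031661.12, chr8:88521354-88594884, plus strand) had the lowest share of regions in common among the members, as 1 of its 8 regions was called in all 6 lists (12.5%). That region was the promoter, chr8:88520378-88522294. Its percentiles were 43.8, 42.1 and 53.5 in WT and 59.5, 59.4 and 41.7 in cKO samples. The genotypes overlapped, since cKO 3 was the lowest of all 6 lists. The difference was 7.07 points (limma, 95% interval −12.9 to 27.0, adjusted p = 0.834). The intronic region at 25.7 kb, which holds a TCF/LEF match, was called in all lists but cKO 2, at within-list percentiles of 29.7, 27.8 and 62.1 in WT and 75.3 and 25.2 in cKO 1 and cKO 3.

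Ctnnb1 (ENSMUSG00000006932.17, chr9:120929216-120960507, plus strand) encodes β-catenin, the effector of the pathway. Its promoter region, chr9:120932944-120935775, was the member region with the largest difference between genotypes. The summit lay 4.27 kb inside the annotated gene, at the start of another of its transcripts. Percentiles were 69.8, 65.8 and 62.4 across the WT lists, compared with 26.0, 56.8 and 41.0 for cKO 1, 2 and 3. All cKO lists lay below all WT lists, with the smallest gap in cKO 2. The fold reached 7.81, 10.1 and 9.76 across WT lists, and 6.22, 8.03 and 6.76 across cKO lists. The fragments piled up at the summit were inferred from fold and p. They numbered 68, 111 and 141 in WT and 129, 70 and 117 in cKO samples, likewise without scaling for depth. The difference in percentile was −24.7 points (limma, 95% interval −45.2 to −4.21, unadjusted p = 0.0213, adjusted p = 0.711). Ranked by −log10 p it was −12.3 points. Leaving out 1 list at a time gave −32.2 to −17.0 points, farthest from 0 without cKO 2.

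The other Ctnnb1 regions were mostly weak or not called in every list. A region 9.90 kb upstream was called in all 6, at 43.8 to 62.9 in WT and 41.1 to 67.0 in cKO samples. Downstream of the gene, in Ulk4, lay a region called in 3 of 3 cKO and 0 of 3 WT lists, chr9:120962579-120963340. It ranked near the bottom of each cKO list, at within-list percentiles of 1.15, 1.69 and 4.64. The nearest other region, chr9:120961752-120962312, was also weak and was called in WT 2, WT 3 and cKO 1.

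**Figure D3:**
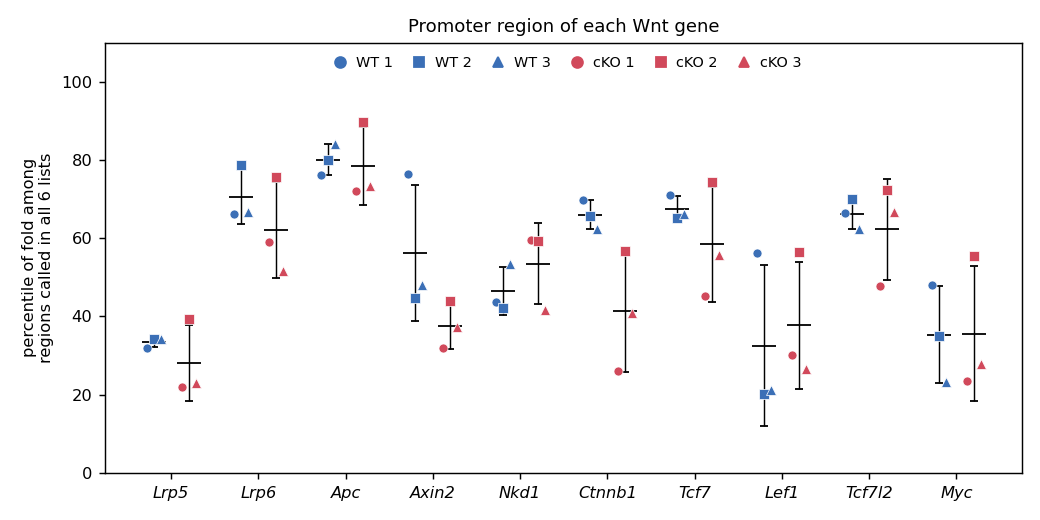
Percentile of fold of the strongest promoter region of each gene, among the regions called in all 6 lists (vertical axis), in the 3 WT lists (blue) and the 3 cKO lists (red), with the mean and SD of each genotype in black. Axin2 and Ctnnb1 show no overlap between genotypes, and at Lrp5, Apc, Tcf7, Lef1, Tcf7l2 and Myc the highest of all values, from 39.3 at Lrp5 to 89.8 at Apc, belongs to cKO 2.

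Tcf7, Lef1 and Tcf7l2 encode the DNA-binding partners of β-catenin. Tcf7 (ENSMUSG00000000782.15, chr11:52252371-52283014, minus strand) had 1 region in common to all lists, its promoter at chr11:52282508-52284503. It stood at 71.2, 65.1 and 66.1 in WT and 45.3, 74.3 and 55.8 in cKO samples. cKO 2 was the highest list and the other cKO lists were the lowest, with a difference of −8.96 points (limma, 95% interval −27.4 to 9.53, adjusted p = 0.773). A region 14.6 kb upstream of the gene, chr11:52297449-52298009, was strong where it was called. Its within-list percentiles were 49.6 and 73.2 in WT 2 and WT 3 and 90.1 and 95.3 in cKO 1 and cKO 3, and it was not called in WT 1 or cKO 2. It was named after its values were seen, and was not part of the test. A region over an exon of Tcf7, chr11:52257414-52257927, was called in 3 of 3 cKO and 0 of 3 WT lists, at within-list percentiles of 7.65, 8.91 and 6.15, and the noncoding gene Gm26551 overlaps it.

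Lef1 (ENSMUSG00000027985.14, chr3:131110471-131224356, plus strand) had 8 regions, 2 of them in all lists. Its promoter region, chr3:131110278-131112586, also counted as a promoter of the gene Gm43352, and its strongest summit lay 1.88 kb inside Lef1. The region stood at 56.2, 20.2 and 21.2 in WT and 30.2, 56.4 and 26.6 in cKO samples. WT 1 and cKO 2, the lists with the fewest peaks, were high here and the other 4 were low, so the spread within a genotype exceeded the difference of 5.19 points (limma, 95% interval −19.7 to 30.1, adjusted p = 0.908). The region 4.28 kb upstream, whose window with a TCF/LEF match is printed above, was weak throughout, at 9.21 ± 6.27 in WT and 12.4 ± 6.24 in cKO samples.

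Tcf7l2 (ENSMUSG00000024985.19, chr19:55741820-55933654, plus strand), known as the main TCF factor of the intestinal epithelium, had 14.7 regions per 100 kb, the densest window of the 10. Of its 34 regions, 12 were called in all lists, and most lay along its introns. Its strongest region was distal, 8.64 kb upstream at chr19:55732482-55733535. It stood at 73.1, 79.5 and 79.3 in WT and 71.7, 75.4 and 75.0 in cKO samples, so the lists differed little there (difference −3.26 points, limma, 95% interval −15.5 to 8.94, adjusted p = 0.877). The promoter, chr19:55740797-55741927, stood at 66.3, 70.1 and 62.3 in WT and 47.8, 72.3 and 66.8 in cKO samples, where cKO 1 was the lowest list and cKO 2 the highest. An intronic region at 56.0 kb was among the 3 member regions with the largest rise, with 20.3, 28.2 and 24.4 in WT and 28.8, 25.7 and 48.1 in cKO samples. Among the intronic regions the strongest on average, at 126 kb, ranged from 24.9 to 38.2 in WT and from 12.8 to 48.5 in cKO samples. Without cKO 3 the difference at 56.0 kb fell from 9.88 to 2.94 points. The intronic regions at 97.1 and 118 kb, whose TCF/LEF windows are printed above, stood at 17.6 to 24.1 and 27.3 to 35.3 in WT, and at 23.5 to 37.0 and 15.5 to 38.7 in cKO samples. The region with 3 matches was weak, at within-list percentiles of 1.85 and 2.97 in cKO 1 and cKO 3.

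**Figure D4:**
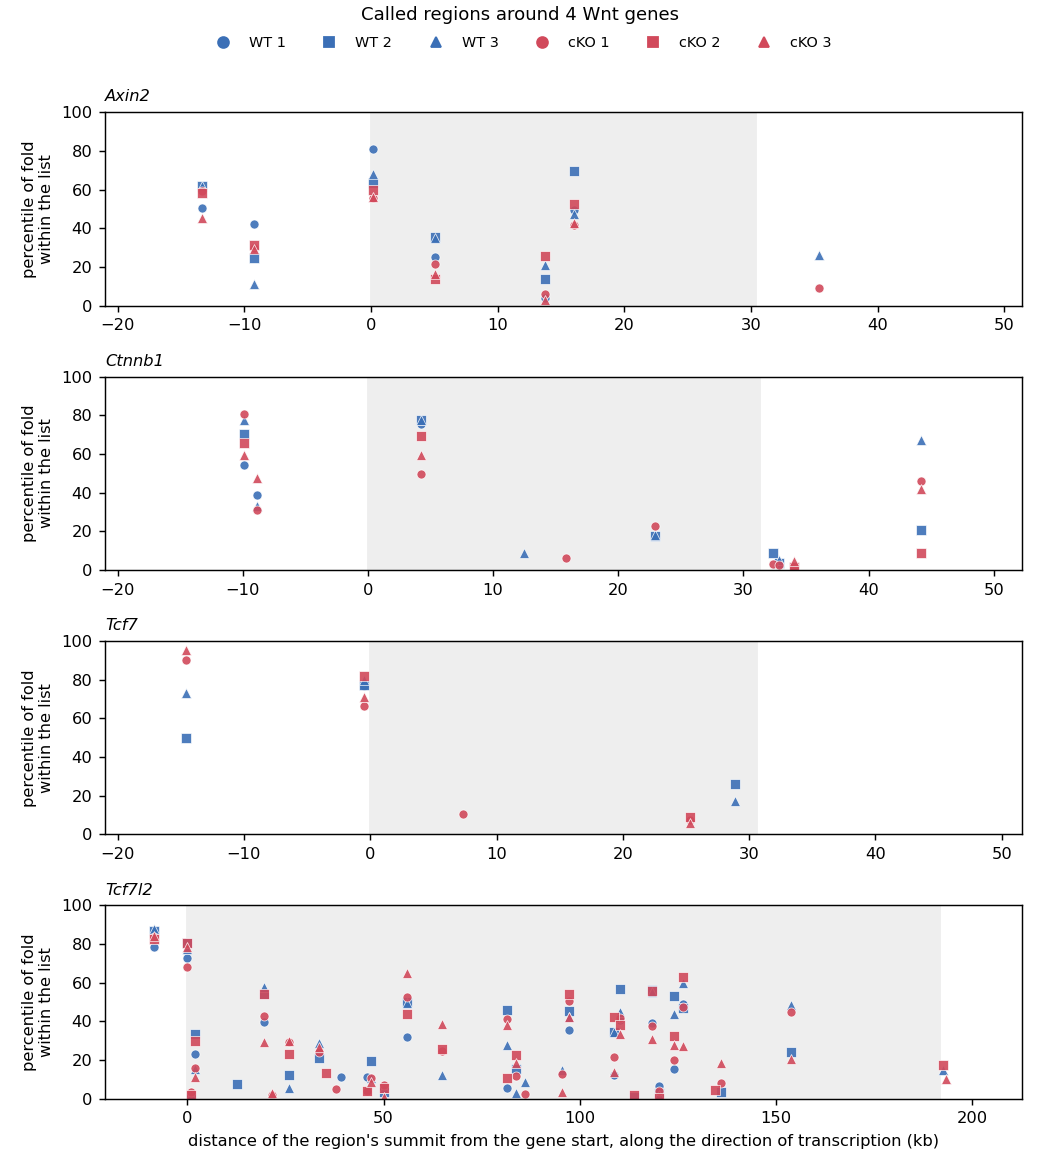
Percentile of fold within a list (vertical axis) of every called region around Axin2, Ctnnb1, Tcf7 and Tcf7l2, against the distance of its summit from the gene start in kb along the direction of transcription, with the gene body shaded. Points are single lists, WT in blue and cKO in red. A region without a point for a list was not called there, as at 14.6 kb upstream of Tcf7, which has 4 points.

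Myc (ENSMUSG00000022346.15, chr15:61985391-61990374, plus strand), a growth regulator and target of β-catenin, is a short gene with 3 regions in its window. The promoter region, chr15:61984242-61986296, stood at 48.0, 34.9 and 23.1 in WT and 23.5, 55.3 and 27.8 in cKO samples. The genotypes overlapped throughout, with a difference of 0.217 points (limma, 95% interval −22.7 to 23.2, adjusted p = 0.998). A further promoter region inside the gene, chr15:61986668-61988013, was weak, at 4.50 to 15 in WT and 2.24 to 7.74 in cKO samples.

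The wider pathway was examined through 58 further Wnt genes, listed by role, with the same windows. limma called 0 of their 215 regions called in all 6 lists, and 11 had an unadjusted p under 0.05 (5.12%, against 6.84% of all regions). Every cKO percentile was below every WT percentile at 17 of these 215 regions, against 6.08% of all regions, and above at 13, against 5.86%. Of the 459 regions, 3 were called in all cKO lists and no WT list, against 0.464% of all regions, and 0 in all WT lists and no cKO list, against 0.111%. All 10 cytoplasmic genes, such as Gsk3b and Dvl2, had a promoter peak in all 6 lists. Of the receptors, 3 of 10 did (Fzd5, Fzd7 and Ror2), and so did 5 of 9 genes for ligands and their secretion (Wnt3, Wnt9b, Wnt5a, Wnt2b and Porcn), 8 of 10 nuclear genes, 4 of 10 inhibitors and 5 of 9 targets. The secreted inhibitors Dkk1, Dkk2, Dkk3 and Sfrp5 had none in any list. In total 35 of the 58 genes had a promoter peak in all 6 lists, against 44.5% of protein-coding genes. These counts go by where the summit fell. Fzd2, Ryk, Ccnd1 and Sp5 had a promoter peak in 2 lists, but their promoter region was called in all 6. The contrast between roles is thus partly one of summit position. Znrf3, a ubiquitin ligase that removes Frizzled from the surface, had promoter percentiles of 85.8, 82.9 and 69.7 in WT and 57.3, 73.9 and 51.5 in cKO samples (limma, unadjusted p = 0.0300, adjusted p = 0.711). Wif1, which encodes a secreted Wnt inhibitor, stood at 82.1, 78.9 and 89.6 in WT and 90.0, 91.6 and 95.5 in cKO samples (limma, unadjusted p = 0.0306, adjusted p = 0.711). The target genes Ephb2 and Ephb3, receptors that sort cells along the crypt, stood at 17.2 to 49.3 and 63.6 to 76.9 in WT, and at 7.24 to 19.0 and 43.3 to 71.1 in cKO samples. At both, cKO 2 fell within the range of WT and the other cKO lists were below it. Unadjusted p was 0.0746 at Ephb2 and 0.0864 at Ephb3 (limma, adjusted p = 0.711 at both). Promoter differences of the other targets with a value ran from −11.4 points at Sox9 to 2.40 at Tnfrsf19. Csnk1a1, of the cytoplasmic genes, had the lowest promoter p of the list. It stood at 91.7, 96.0 and 89.2 in WT and 78.7, 88.1 and 81.2 in cKO samples (limma, unadjusted p = 0.0210, adjusted p = 0.711). All these genes were named after their values were seen.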

How the data were processed

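Accessible chromatin was measured by ATAC-seq in 6 crypt samples, 3 per genotype. The authors trimmed, aligned (BWA, GRCm38) and filtered reads with nf-core/atacseq and called narrow peaks per sample with MACS2, and bedtools is also named in the processing notes. No input control is described. For each peak, the deposited lists give a fold ratio of summit pileup to local background, a −log10 p and a −log10 q from a Poisson model, a score derived from the −log10 q, and the summit offset. A score or fold is the authors' value for a single peak in 1 list, and read counts were not used here. Total read depth is unknown, and summit pileups were inferred from fold and −log10 p, which gave whole numbers within 1e-04 for 460 of 460 member peaks (10 to 273 fragments, median 36).

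Genes came from GENCODE M21 on chromosomes 1 to 19, X and Y, with coordinates 1-based. Peaks overlapping by at least 1 base were merged, and the peak of highest fold stood for a list. The 10 members and all gene lists and motifs were chosen with earlier results of these data known. The text describes all members, with the strongest promoter region and the 2 strongest distal regions called in all 6 lists of each (fewer where fewer existed), regions that passed the test or were called in 3 against 0 lists, and the 3 largest differences in each direction. Percentiles were compared with limma 3.58.1 (trend and robust, R 4.3.3), tested on simulated data beforehand, over all regions called in 6 lists. Peak numbers per gene were compared by exact permutation. Of 59 names in the list of further Wnt genes, Troy matched no symbol. Alternatives were other rankings, a −log10 q minimum of 5, lists of equal length, other windows and promoter limits, a replicate block, and leaving out each sample. Other analyses ran under Python 3.11.15 with pandas 2.3.3, scipy 1.17.1, pysam 0.24.0 and matplotlib 3.10.9.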

Additional observations from a re-analysis of the deposited data

How the results depend on the processing

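With 3 lists a genotype, percentiles rather than read counts and an unknown read depth, differences in rank were hard to detect, large ones included. Over all promoter regions they ran from −36.2 to 54.7 points, and the lowest adjusted p was 0.711 (limma). A count of 0 calls therefore does not show that no region changed. limma called 0 member regions in either direction under every alternative, and 0 of all regions. Between 0 and 3 member regions had an unadjusted p under 0.05. The highest count came without cKO replicate 2, with 3 of 46 member regions and 6276 of all 33930 regions under 0.05. With the replicate block, limma likewise called 0 member regions and 0 of all regions. Same-numbered samples had deviations correlated at −0.295, −0.0126 and 0.140, and each WT sample correlated best with a cKO sample of another number. For WT 2 that correlation was 0.0323, with cKO 1. With 3 samples a genotype, these correlations cannot settle whether the numbers pair the samples.

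Regions called only in cKO numbered 2 to 5 without 1 list at a time (5 without WT replicate 3, 4 without cKO replicate 2) and 4 when 2 of 3 lists sufficed. Those called only in WT numbered 0 to 1 (1 without WT replicate 1), 1 with lists of equal length, 2 with fixed windows around summits and 1 when 2 of 3 lists sufficed. The difference in median promoter percentile was −0.355 by −log10 p and −19.1 to −9.37 without 1 list, and that over distal regions −6.15 to 0.932. The cause of these changes was not tested.

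Differences without a call changed sign as follows. In peak number, with lists of equal length, Lrp5 went to −1.33, Apc, Ctnnb1 and Tcf7 to −0.333 and Nkd1 to −0.667. With −log10 q of at least 5, Ctnnb1 went to −1 and Tcf7 to −0.667. In the gene body alone Axin2 went to 0.333 and Ctnnb1 to −0.667, and within 50 kb Axin2 and Myc went to 0.333. Without 1 list the range was −0.5 to 2 for Lrp5, −0.333 to 1.67 for Lrp6, −0.667 to 1.83 for Apc, −0.833 to 1.17 for Ctnnb1, −0.667 to 1.83 for Lef1 and −1.17 to 4.33 for Tcf7l2. In promoter percentile, Apc went to 0.428 within the whole list and 3.89 by −log10 p, and Tcf7l2 to 4.28 by −log10 p. Without 1 list the range was −7.19 to 1.45 for Apc, −4.33 to 16.3 for Lef1, −8.87 to 3.31 for Tcf7l2 and −10.0 to 6.23 for Myc.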
